A study of Mus musculus with 12 samples.

Results

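CD8 T cells were picked out of dissociated mouse tumours by their own transcripts. A cell counted as a member when it carried at least 1 UMI (a sequenced molecule with its own barcode) of the summed CD3 genes Cd3e, Cd3d and Cd3g and at least 1 UMI of the summed Cd8a and Cd8b1, with none of Cd4, Foxp3 or Lyz2. Members were thus chosen by the measured UMIs of these genes, which are not tested here. Cells also needed 300 or more detected genes, 15% or fewer mitochondrial UMIs, and a leading hashtag that reached 10 counts and 2 times the runner-up. The rule found 1043 CD8 T cells among 50416 tumour cells that a hashtag assigned to a tumour, or 2.07%. They lay in 38 of 43 hashed tumours: 112 in SCC31, 313 in SCC32, 215 in SCC35, 173 in SCC37 and 230 in SCC40.

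CD8 T cells read peptides on MHC class I with their T cell receptor, for which the CD8 alpha and beta chains act as coreceptor. Activated cells kill their targets with perforin, which forms pores, and granzymes, proteases that enter through them, and they secrete cytokines such as interferon gamma. In tumours, lasting receptor stimulation is known to bring on inhibitory receptors such as PD-1 and LAG-3, whereas cells that keep the transcription factor TCF-1 (Tcf7) hold a less differentiated, self-renewing state. Interferons from any source switch on a shared set of target genes in T cells and in most other cells.

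The study profiled tumours of 5 cell lines, SCC31, SCC32, SCC35, SCC37 and SCC40, in a series whose title concerns rejection of melanoma. Per the hashtag table, the lines SCC40 and SCC31 are rejected, whereas SCC37, SCC35 and SCC32 are not. Tumour sampling fell on days 6, 10 and 16 for SCC31 and SCC40 and at days 6, 10, 16 and 20 for the other lines, next to day 0 samples of each line. Each tumour has a mouse and cage entry of its own within its line, so tumours served as replicates, and no drug or genetic treatment is listed for any group. The sources used here do not give mouse strain, sex, age or tumour site. Dissociated cells were hashed, sorted only for viability and run on 6 droplet libraries, 1 for each line and a mix library with further tumours of SCC31, SCC35 and SCC40. Line and library therefore cannot be told apart outside the mix library.

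The label of the SCC31 tumours was checked by Y-linked genes, which were lower there than in the SCC31 day 0 sample. Cells without CD3, Lyz2 or the leukocyte gene Ptprc were used for this check, with the summed level of Y-linked genes in CPM, that is UMIs scaled to the same library total. They held 106.5 CPM in the SCC31 day 0 sample, 14.95 in the SCC31 tumours of its own library (5 UMIs) and 3.43 in those of the mix library (5 UMIs), against 31.3 and 30.5 in SCC32. A wrong label and a small number of cells of the line among those checked could not be told apart. SCC31 tumours also gave few cells, with 335 assigned in its own library and none from its day 16 tumours, and 96 of the 112 SCC31 CD8 T cells came from the mix library. Pairs of libraries shared 41 to 498 cell barcodes. CD8 T cells had a median of 2152 UMIs and 977 genes, and 79 of them (7.57%) had over 10000 UMIs and held 33.9% of all their UMIs. Scrublet, a doublet caller, marked 8.63% of the CD8 T cells against 4.82% of all assigned tumour cells; these cells were kept, and counts without them stand beside the results they change.

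Of the marker genes outside the rule, Gzmb matched the label of CD8 T cells, whereas Ifng was more often seen in CD4 T cells. Cd8a was detected in 79.8% of the members and Cd8b1 in 76.7%, which the rule fixed. Cd3e, also part of the rule, was found in 72.9% of members and in 72.2% of conventional CD4 T cells. The latter are the 1157 cells with CD3 and Cd4 and without Cd8, Foxp3 or Lyz2. Of the markers outside the rule, Gzmb (granzyme B) was detected in 64.3% of CD8 T cells, 20.7% of conventional CD4 T cells and 2.84% of assigned tumour cells outside the CD3-positive, Lyz2-negative class. Ifng (interferon gamma) was detected in 26.9%, 49.1% and 1.35% of the same classes, whose median depths were 2152, 2167 and 4404 UMIs. Ifng thus marked T cells in these tumours but was more often seen in the CD4 class. At the edge of the rule, 255 members (24.4%) had a single Cd8 UMI and 788 had more, while 12 cells were left out for 1 Cd4 UMI, 69 for 1 Lyz2 UMI and 7 for Foxp3. A further 1781 CD3-positive cells without Lyz2 had neither Cd4 nor Cd8 UMIs. In the day 0 samples, which should hold no T cells, the rule found 4 of 7227 cells, or 0.0554% (95% Clopper-Pearson upper bound 0.142%).

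The first question was when CD8 T cells were present. Their share of all assigned cells rose from day 6 to day 10, by 2.46 percentage points averaged over the 5 lines (stratified exact permutation test with days permuted within lines, two-sided, adjusted p 0.000431 over 4 share tests). The step was 1.55 points in SCC32, 0.196 in SCC35, 0.695 in SCC37 and 1.32 in SCC40. It was largest in SCC31, at 8.56 points, and the average leaned on this line, whose tumour label was not settled above. Its 3 tumours of day 6 with at least 20 assigned cells held 1.15%, 0% and 1.56%, the 0 among 76 cells (Clopper-Pearson upper bound 4.74%), and its day 10 tumours held 8.88% and 10.1%. In SCC32 the shares were 1.16% and 1.199% at day 6 and 2.91% and 2.55% at day 10. SCC37 held 0.323% and 0.543% at day 6 and 1.10% and 1.16% at day 10. Day 6 and day 10 tumours did not overlap in SCC31, SCC32 and SCC37. They overlapped in SCC35, which held 0.199% ± 0.176 (SD, n = 3) at day 6 and 0.395% ± 0.187 (n = 3) at day 10, and in SCC40, with 0.903% ± 0.652 (n = 3) and 2.22% ± 1.52 (n = 3). From day 10 to the later days 16 and 20 the share rose by a further 1.72 percentage points over the 4 lines with such tumours (same exact test, adjusted p 0.0148). This step rested on few tumours, since without SCC32 day 10 replicate 1 or 2 the adjusted p was 0.0524 or 0.0655 by the same exact test. With a stricter gate of at least 2 CD3 UMIs and at least 1 Cd8b1 UMI the first step was 1.42 points (adjusted p 0.000611, exact permutation).

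Within the T cells the timing was different. CD8 T cells as a share of CD3-positive, Lyz2-negative cells did not pass the test between days 6 and 10 (1.47 percentage points, exact permutation, adjusted p 0.790), and rose by 26.03 points between day 10 and the later days (adjusted p 3.17e-05, exact permutation). In SCC32 the share was 8.58% and 12.9% at day 10 and 35.1%, 25.8%, 32.5% and 61.4% later. SCC35 had 11.8%, 7.89% and 15.9% at day 10 and 49.2%, 33.7%, 46.1%, 54.1% and 53.8% later. SCC37 had 13.8% and 13.6% at day 10 and 28.6%, 36.7%, 45.5% and 56.6% later. In SCC40 the values were 6.97%, 17.7% and 18.1% at day 10 and 20.4% and 33.3% at day 16. Every later tumour lay above every day 10 tumour of its line in all 4 lines. With the stricter gate the step was 16.9 points (adjusted p 0.000349, exact permutation). Against conventional CD4 T cells alone, CD8 T cells went from 19.8% ± 5.67 (n = 2) to 66.1% ± 17.98 (n = 4) of the pair in SCC32, from 35.3% ± 7.40 (n = 3) to 84.1% ± 6.42 (n = 5) in SCC35, from 25.3% ± 0.411 (n = 2) to 82.7% ± 4.33 (n = 4) in SCC37 and from 27.7% ± 12.1 (n = 3) to 42.4% ± 12.8 (n = 2) in SCC40.

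**Figure D1:**
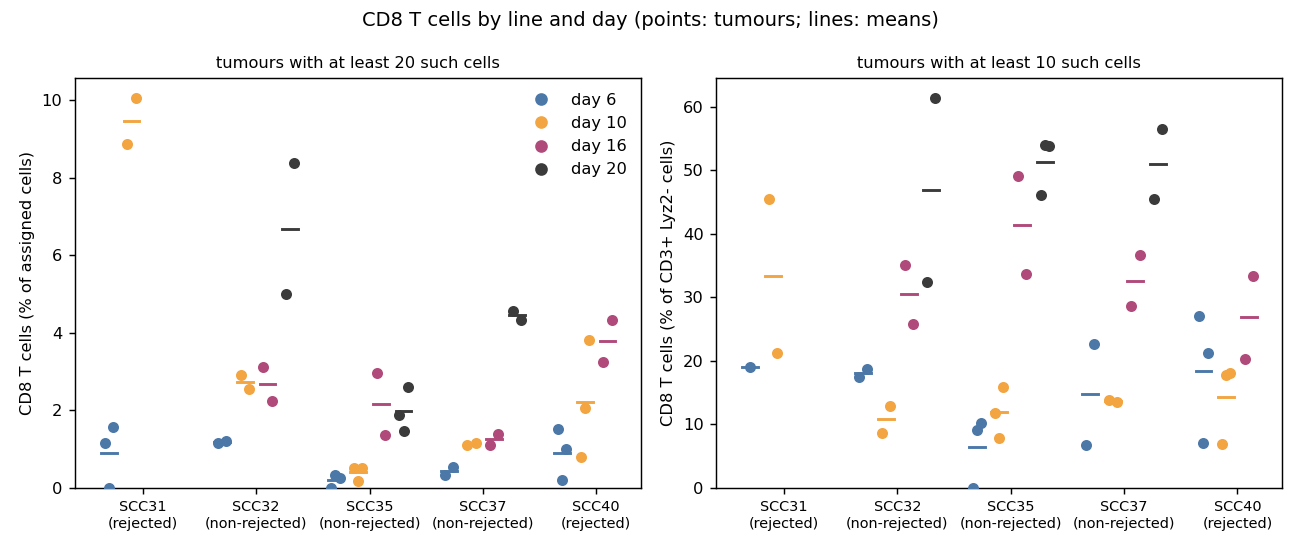
CD8 T cells as a percentage of all assigned cells (left) and of CD3-positive, Lyz2-negative cells (right) in each tumour, by line and day; horizontal lines are means. On the left the day 10 tumours of SCC31 stand at 8.88% and 10.1%, and on the right every tumour of days 16 and 20 lies above the day 10 tumours of its line.

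To describe what the CD8 T cells expressed, raw UMIs were summed per tumour, and tumours with at least 10 CD8 T cells were kept: 28 tumours with 994 cells and 17950 to 408562 summed UMIs each. Levels below are CPM of these sums. CD8 T cells were first set against the conventional CD4 T cells of the same tumour in the 21 tumours that had at least 10 cells of each class. Of 3810 genes tested, 213 (5.59%) were higher and 205 (5.38%) lower in CD8 T cells, together 418 or 11%, with edgeR's quasi-likelihood test at a Benjamini-Hochberg adjusted p under 0.05 and the tumour as a block. All adjusted p-values for genes below come from this tool. With every cell thinned to at most 1000 UMIs, 239 of 935 genes tested were called (25.6%).

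Most killing genes were higher in CD8 T cells. Of 12 cytotoxic granule genes tested, 7 passed the test as higher and 1 as lower, and the median log2 difference was 0.86 against 0.01 over all genes tested. Gzmb (ENSMUSG00000015437) ranged from 509.4 to 2363 CPM over the 21 CD8 sums (median 1027) and from 0 to 512.9 in the CD4 sums (median 179). It was higher in the CD8 T cells of all 21 tumours, by 2.65 on the log2 scale (SE 0.23, adjusted p 1.93e-10). Gzma, granzyme A, had means of 312 ± 301 CPM in CD8 and 21.1 ± 43.1 in CD4 T cells (SD, n = 21) and a log2 difference of 4.10. Gzmk, a further granzyme, stood at 94.2 ± 80.6 and 11.6 ± 25.2 CPM (log2 3.16). Prf1, perforin, stood at 64.4 ± 42.7 and 7.83 ± 10.4 CPM, higher in CD8 in 20 of 21 tumours (log2 2.97). Nkg7, Ctsw and Cst7, which encode a granule membrane protein, a cathepsin and a cystatin of killer cells, differed less, by 0.93, 0.86 and 0.86. Srgn, the proteoglycan core of secretory granules, went the other way and was lower in CD8 T cells in 21 of 21 tumours (log2 -1.11, SE 0.11).

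Several surface receptor genes, among them some that natural killer cells also express, were higher in CD8 T cells. Klrd1 (CD94), Klrc1 (NKG2A) and Klrk1 (NKG2D) were higher by log2 2.08, 1.69 and 1.70. Klrd1 had 204 ± 99.6 CPM against 47.8 ± 32.8 in CD4 T cells (n = 21). Ly6c2, an antigen of effector and memory CD8 T cells, ranged from 938 to 2926 CPM in CD8 and from 0 to 656.1 CPM in CD4 sums without overlap (log2 2.76, SE 0.22, adjusted p 5.71e-11). Cd7, an early T cell surface protein, was higher by 3.54, and Cd160, an MHC ligand receptor also counted among inhibitory receptors, by 3.36. Of 9 effector differentiation genes tested, 4 were higher, the 3 Klr genes and Ly6c2. The other 3 that passed the test were lower, namely the transcription regulator genes Tbx21 (T-bet, -0.87), Batf (-1.40) and Id2 (-0.52). The natural killer marker list, read for contamination, summed to a median of 217 CPM in CD8 and 159 in CD4 sums, and its part in these differences was not tested.

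Secreted factors divided between the classes. The chemokine genes Ccl5, whose product draws T cells and monocytes, and Xcl1, whose product draws cross-presenting dendritic cells, were higher in CD8 T cells: Ccl5 had 3185 ± 2605 CPM against 594 ± 534 (log2 2.48, SE 0.24), and Xcl1 had 204 ± 197 against 82.7 ± 177 (log2 1.97, SE 0.41). The cytokine genes Csf2 (GM-CSF), Lta (lymphotoxin alpha) and Ifng and the chemokine gene Ccl1 were lower. Ifng (ENSMUSG00000055170) ranged from 0 to 296.2 CPM in CD8 sums (median 110.0) and from 0 to 2911 CPM in CD4 sums (median 641.7). The ranges overlapped, but CD8 was lower in 20 of 21 tumours, with a log2 difference of -2.18 (SE 0.26, adjusted p 1.53e-07). Csf2 was at 5.13 ± 11.2 CPM in CD8 against 202 ± 174 in CD4 T cells (log2 -5.10, SE 0.32). In all, 2 cytokine and chemokine genes were higher and 4 lower of 10 tested.

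**Figure D2:**
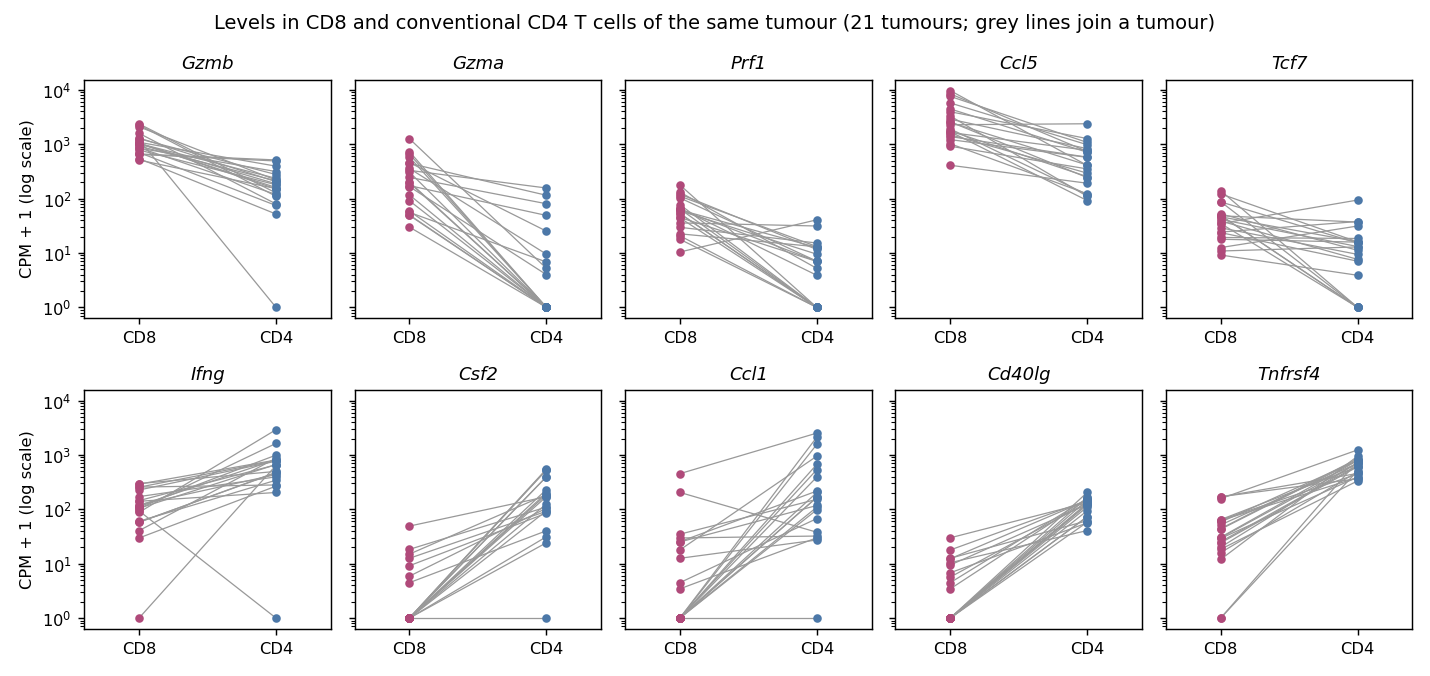
Levels of 10 genes in the CD8 and the conventional CD4 T cells of 21 tumours, as CPM plus 1 on a log axis; grey lines join the classes of a tumour. Gzmb lies higher in CD8 in 21 of 21 tumours and Ifng lower in 20 of 21, and Tnfrsf4 and Cd40lg separate the classes without overlap.

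Helper and costimulatory genes were on the CD4 side. Cd40lg (CD40 ligand, the helper signal to B cells and dendritic cells) ranged from 0 to 28.9 CPM in CD8 sums and from 39.7 to 203.6 in CD4 sums (log2 -4.33, SE 0.29). Tnfrsf4 (OX40) ranged from 0 to 169.4 in CD8 and from 332 to 1237 CPM in CD4 sums (log2 -3.66, SE 0.23); Sdf4, the gene directly upstream on the same strand of chromosome 4 (mm10; Sdf4 ends at 156013610 and Tnfrsf4 starts at 156013843), could share reads with it. Of 13 activation and costimulation genes tested, 6 were lower in CD8 T cells and 0 higher: Tnfrsf4, Tnfrsf18 (GITR, -1.75), Icos (-1.34), Il2ra (the IL-2 receptor alpha chain, -1.46), Nfkbia (-0.51) and Cd44 (-0.38). The last 3 did not hold in every alternative: with at least 20 cells per sum Il2ra was at -0.75 (adjusted p 0.107) and Nfkbia had an adjusted p of 0.0526, and Cd44 had 0.115 with DESeq2. Tnfsf11 (RANKL), Penk (proenkephalin), Ccr8, Maf, Ramp3 and Serpinb1a were also lower, with log2 differences of -3.47, -4.42, -4.56, -2.58, -2.55 and -2.71. The list of CD4 and regulatory T cell markers without the gate genes (Cd40lg, Ikzf2, Izumo1r) summed to a median of 57.9 CPM in CD8 and 236 in CD4 sums. Regulatory T cells whose Foxp3 went undetected would stay in the CD4 class, and their part in these differences was not tested.

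Inhibitory receptor genes were not higher in CD8 T cells as a group. Of 15 tested genes of inhibition and exhaustion, Cd160 alone was higher and 7 were lower: Ctla4 (-1.18), Tigit (-0.76), Lag3 (-0.83), Maf, Bhlhe40 (-1.04), Nfatc1 (-1.03) and Nr4a3 (-0.62). The median was -0.62 against 0.01 for all genes tested. Pdcd1, which encodes PD-1, had 115 ± 109 CPM in CD8 and 153 ± 74.6 in CD4 T cells and did not pass the test (log2 -0.62, adjusted p 0.104). Of 15 T cell receptor signalling genes, 6 were lower (Cd5, Lcp2, Cd6, Cd247, Zap70 and Cd2) and 0 higher.

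Some genes of less differentiated T cells, and genes of division, were on the CD8 side. Of 11 naive, stem-like and memory genes tested, 5 were higher and 0 lower: Tcf7 (TCF-1, log2 1.65, SE 0.36), the survival gene Bcl2 (1.38), the costimulatory receptor gene Cd27 (1.12), the chromatin organiser gene Satb1 (0.66) and Dapl1 (4.30, SE 0.57). Tcf7 stood at 45.6 ± 35.2 CPM in CD8 and 15.8 ± 20.9 in CD4 T cells, higher in 17 of 21 tumours. Dapl1 lost its call with DESeq2 (adjusted p 0.812). Among list members without a call, Klf2 and Ccr7 were higher in CD8 T cells in 15 and 14 of 21 tumours. Igfbp4 was higher in CD4 T cells in 15 of 21. Of 19 proliferation genes, 11 were higher and 0 lower, and all 19 had a log2 difference above 0 (median 0.74). Mki67, a marker of cycling cells, had 208 ± 102 against 105 ± 74.4 CPM (log2 0.99, SE 0.21, adjusted p 0.00113), and Top2a, the replication topoisomerase, 322 ± 197 against 163 ± 96.1 CPM (0.91). Of 16 interferon response genes 1 was lower (Ifi27l2a, -0.80), and the list median was 0.15. In the residence and migration list 2 of 11 were lower, the chemokine receptor genes Ccr8 and Cxcr6 (-1.01). Glycolysis genes had 1 of 11 lower, the hexokinase gene Hk2 (-0.96), and dissociation and heat stress genes 3 of 14 lower, Junb, Jund and Fosb. Fosb lost its call under 6 alternatives (adjusted p up to 0.372, with thinned cells) and Jund with DESeq2 (0.0525).

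**Figure D3:**
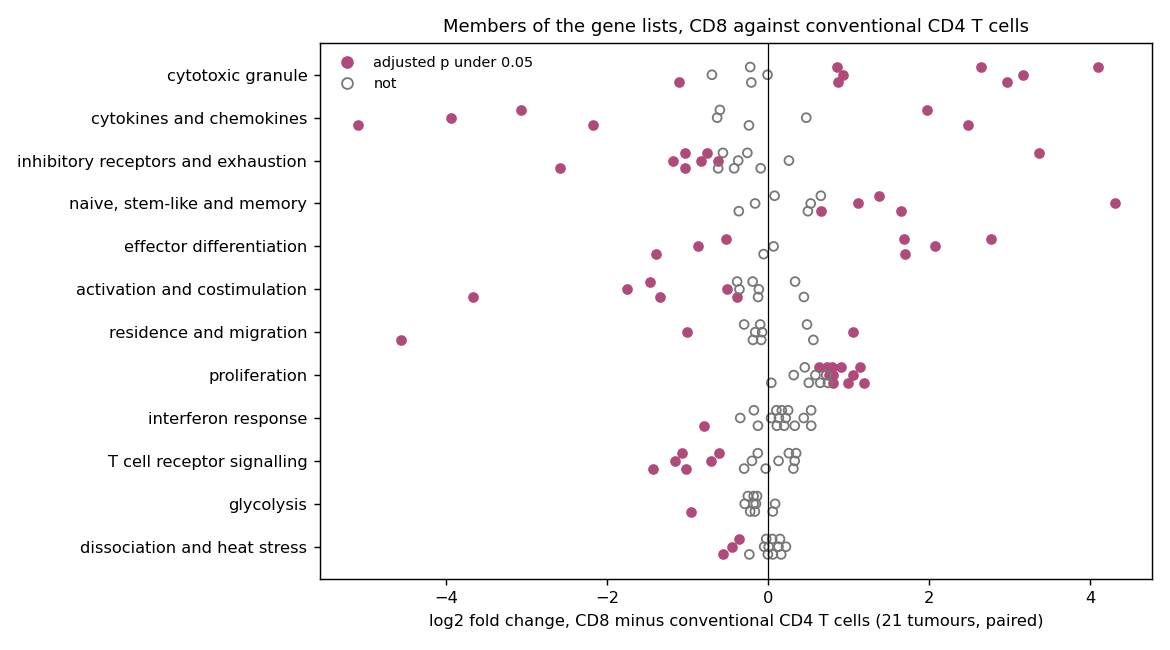
Log2 difference between CD8 and conventional CD4 T cells for each tested member of 12 gene lists, gate genes left out; filled points passed an adjusted p of 0.05 and vertical position within a row only separates points. Called cytotoxic granule genes lie to the right except Srgn, called activation and costimulation genes lie to the left, and all 19 proliferation genes lie right of 0.

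A change over time that differed between the classes passed the test for 1 gene of 3810 (0.0262%), and 295 (7.74%) had an unadjusted p under 0.05. DESeq2 called 190 of 16103 genes (1.18%) for the same term, all with a higher difference. Without the filter on low counts edgeR called 34 of 16103 (0.211%). Plac8 (ENSMUSG00000029322), which encodes a small cysteine-rich protein of lymphoid and myeloid cells, had 659 ± 226 CPM in CD8 T cells at day 10 (n = 7) and 499 ± 194 at the later days (n = 9). In the conventional CD4 T cells of the same tumours it had 472 ± 358 and 70.6 ± 59.6 CPM. The late CD4 values, 0 to 171.9 CPM, lay below the late CD8 values of 186 to 794 CPM without overlap, whereas at day 10 the CD4 values of 112.7 to 1007 CPM overlapped the CD8 values of 363.1 to 929.9 CPM. The difference between the changes was 2.20 on the log2 scale (SE 0.41, adjusted p 0.0300), but the call was lost without the mix library (adjusted p 0.0797), under 4 other settings (adjusted p 0.151 to 0.251) and without single tumours (adjusted p up to 0.0853).

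The T cell receptor beta chain was read for its V segment, which the rule did not use. A segment alone does not identify a clone, so clonal make-up was not measured. Each receptor beta chain uses 1 of the Trbv segments, and a cell was given a segment when a single Trbv gene led its UMIs, which held for 529 CD8 and 646 conventional CD4 T cells. Trbv13-3 and Trbv13-2, which lie close together on chromosome 6, are shown because they went opposite ways between the classes. Their spliced transcripts in GENCODE M21 (GRCm38, plus strand) span chr6:41130147-41130585 and chr6:41121396-41121832. Both have 340 bases and differ at 32 of them, an identity of 90.6%. Bases 41 to 340 are printed, and capitals mark the 25 of them that differ.
Trbv13-2: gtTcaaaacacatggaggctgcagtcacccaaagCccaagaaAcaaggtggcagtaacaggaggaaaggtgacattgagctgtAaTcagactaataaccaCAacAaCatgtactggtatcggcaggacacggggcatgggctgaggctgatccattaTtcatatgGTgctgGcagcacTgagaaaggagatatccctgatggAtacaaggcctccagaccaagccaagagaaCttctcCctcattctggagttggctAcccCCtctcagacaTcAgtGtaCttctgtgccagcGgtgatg
Trbv13-3: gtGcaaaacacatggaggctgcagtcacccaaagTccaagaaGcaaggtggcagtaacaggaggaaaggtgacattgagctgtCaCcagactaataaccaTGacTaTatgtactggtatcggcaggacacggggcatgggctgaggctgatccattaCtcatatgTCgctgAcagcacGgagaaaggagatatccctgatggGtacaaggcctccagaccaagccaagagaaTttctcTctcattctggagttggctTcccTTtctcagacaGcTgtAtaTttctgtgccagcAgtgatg
Since the segments are this alike, reads over shared stretches could be split between them, and their counts are uncertain to that extent.

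Trbv13-3 led in 77 of 529 CD8 T cells (14.6%, 95% Clopper-Pearson interval 11.7% to 17.9%) and in 1 of 646 conventional CD4 T cells (0.155%, 0.00392% to 0.859%). Trbv13-2 led in 25 CD8 T cells (4.73%) and in 132 CD4 T cells (20.4%). These intervals cover counting error only, and the segments were picked after their values were seen, so the shares are a description without a test. In the 11 tumours with at least 10 such cells of each class, Trbv13-3 led in 38 CD8 and 0 of 514 CD4 T cells, which allows a CD4 share of up to 0.584% by 3 counts of the total (Clopper-Pearson upper bound 0.715%). Trbv13-3 led in CD8 T cells of tumours of SCC32, SCC35, SCC37 and SCC40, at uneven shares. Outside the 11 pairs it led in 11 of 23 CD8 T cells of SCC37 day 20 tumour 2 (47.8%). Also outside them, it led in 20% in SCC35 day 16 tumour 1 and 15% in SCC37 day 20 tumour 1. It led in 4.41% in SCC32 day 20 tumour 2 and in none in SCC35 day 16 tumour 2. Within the pairs it led in 23 of 36 CD8 T cells of SCC40 day 16 tumour 1 (63.9%), 7 of 40 of SCC40 day 16 tumour 2 (17.5%) and none in 5 of the 11 tumours. Trbv13-2 was higher in the CD4 class of 10 of 11 tumours and Trbv26 in 11 of 11, with 3.86% ± 3.71 of CD8 and 15.8% ± 8.29 of CD4 T cells. Trbv16 was higher in the CD8 class of 8 tumours, with 11.4% ± 9.33 against 2.47% ± 3.24.

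The unbiased Simpson index, the chance that 2 cells drawn from a sample share a segment, measured how concentrated segment use was. The CD8 minus CD4 difference averaged -0.0593 (exact permutation test with classes swapped within tumours, two-sided, p 0.0420, 11 pairs), and CD8 was the higher class in 3 of them. The exception was large: in SCC40 day 16 tumour 1 the index was 0.405 in CD8 and 0.303 in CD4 T cells, and the CD8 indices of the other 10 tumours lay between 0.0580 and 0.132. Without that tumour the mean difference was -0.0754 (exact permutation p 0.00781), but the call was lost under each of 8 other settings, with p from 0.0518 to 0.375 by the same exact test, and without each of 8 other single tumours.

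**Figure D4:**
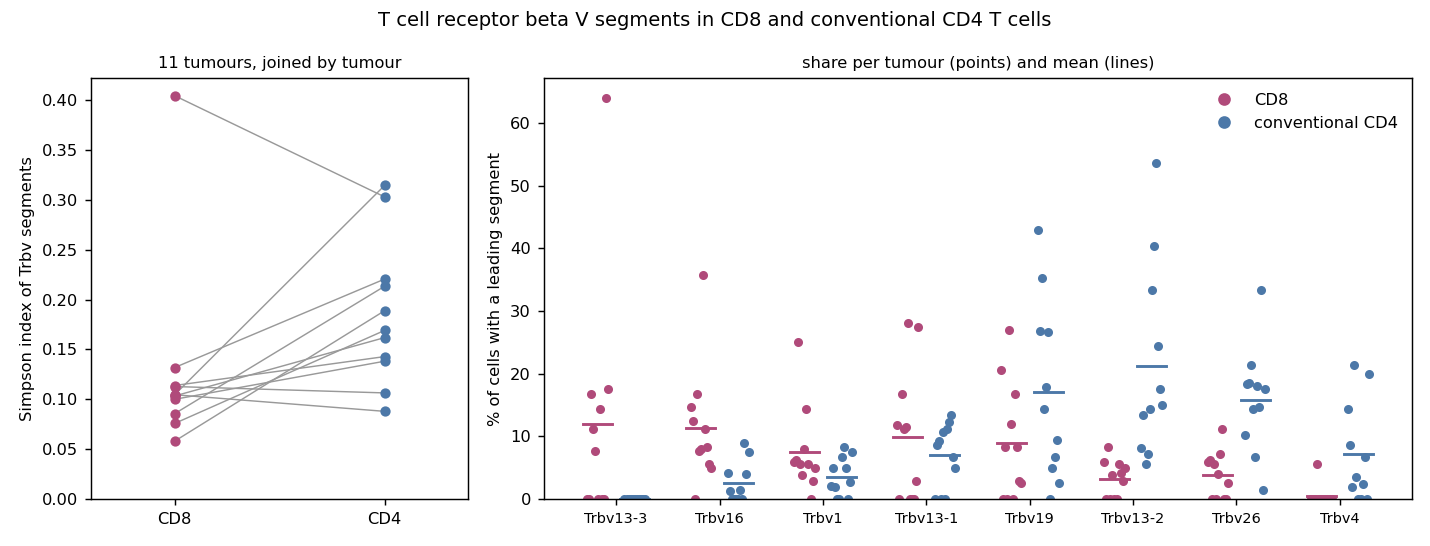
Simpson index of Trbv segments in CD8 and conventional CD4 T cells of 11 tumours, joined by tumour (left), and the percentage of cells led by each of 8 segments in each tumour with the mean as a line (right). The highest CD8 index, 0.405, and the Trbv13-3 share of 63.9% belong to SCC40 day 16 tumour 1, and Trbv13-3 is at 0 in the CD4 class of every tumour shown.

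CD8 T cells of different lines were compared next, with the day as a covariate. Of the interferon response genes, 6 of 16 tested differed between lines (Irf7, Iigp1, Isg15, Isg20, Ifi27l2a and Gbp2), and 16 of 16 had an unadjusted p under 0.05, as did 20.2% of all genes tested. Over all genes 114 of 2801 (4.07%) were called. Markers of other cells differed too: 2 of 5 tested fibroblast genes were called, and the dendritic list, with 0 of 2 called and 2 of 2 at an unadjusted p under 0.05, had a median of 1021 CPM in SCC32 and 169 in SCC35. For Irf7, Isg15 and Iigp1 the mean was highest in SCC32, next in SCC37 and lowest in SCC35, with SCC37 and SCC40 close for Isg15. Irf7 (ENSMUSG00000025498), a transcription factor that amplifies interferon responses, had 323 ± 121 CPM in SCC32 (n = 8), 181 ± 75.3 in SCC37 (n = 5), 134 ± 62.1 in SCC40 (n = 7), 85.7 ± 38.4 in SCC31 (n = 3) and 71.7 ± 40.1 in SCC35 (n = 5) (adjusted p 0.00159). The SCC35 values of 127.9, 65.1, 92.6, 24.2 and 48.5 CPM all lay below the lowest of SCC32, 146 CPM, while neighbours in the order overlapped. Isg15, a ubiquitin-like modifier, had 1392 ± 661 CPM in SCC32 and 359 ± 166 in SCC35 (adjusted p 0.00935), with 714 ± 330 in SCC37, 702 ± 222 in SCC40 and 434 ± 419 in SCC31. Iigp1, an interferon-induced GTPase, had 245 ± 137 in SCC32, 243 ± 51.4 in SCC37, 134 ± 152 in SCC40, 84.4 ± 47.1 in SCC31 and 37.6 ± 32.1 in SCC35 (adjusted p 0.00179).

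The genes with the lowest p-values went the same way in part. Lgals3bp, a secreted glycoprotein induced by interferon, had 318 ± 39.8 CPM in SCC37 and 272 ± 132 in SCC32 against 120 ± 28.7, 113 ± 44.9 and 88.5 ± 44.2 in SCC35, SCC40 and SCC31 (adjusted p 0.000935). Every SCC37 value, 279 to 376 CPM, lay above every value of the last 3 lines, which ended at 174. Parp14 and Oas1a, also interferon targets, were called as well (adjusted p 0.00370 and 0.00652). Stat3, which carries cytokine signals to the nucleus, stood at 451 ± 87.0 CPM in SCC37 and 175 to 285 CPM on average elsewhere (adjusted p 0.00560). Igfbp4, which encodes a binding protein of insulin-like growth factors, was high in SCC32 and SCC37 (adjusted p 0.00179), but other tumour cells held more of it. In the CD3-negative cells of the same tumours Igfbp4 averaged 831 CPM in SCC32 and 792 in SCC37, against 228 and 173 in the CD8 sums. Those CD3-negative cells also held Isg15 at 1471 CPM in SCC32, 773 in SCC40, 608 in SCC37, 509 in SCC31 and 377 in SCC35, and Irf7 at 442 in SCC32 and 85.9 in SCC35. The order of the highest and the lowest line was thus the same in CD3-negative cells, and the part of RNA from those cells in the CD8 sums was not tested.

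Killing genes and chemokines also differed between lines, with 3 of 10 tested cytotoxic granule genes (Gzmb, Prf1, Gzmk) and 2 of 7 cytokine and chemokine genes (Ccl1, Ccl5) called. Gzmb was lowest in SCC35, with 703, 234, 509, 427 and 493 CPM (mean 473 ± 169), and reached 1403 ± 619 in SCC40, 1193 ± 927 in SCC31, 976 ± 266 in SCC32 and 952 ± 176 in SCC37 (adjusted p 0.0136). CD3-negative cells held 3.26 to 86.0 CPM of Gzmb by line, with SCC35 the lowest there too. Ccl5 had 5511 ± 3052 CPM in SCC40 and 1080 ± 607 in SCC35 (adjusted p 0.00872). Prf1 stood at 113 ± 51.5 CPM in SCC37 and 77.5 ± 37.4 in SCC40, against 34.9 ± 13.0 in SCC35 (adjusted p 0.0136). Ccl1, a chemokine gene whose product binds CCR8, had its highest CD8 levels in SCC35. Its values there were 203.5, 0, 451.5, 700.8 and 226.3 CPM, against 0 to 55.7 CPM in all 23 tumours of the other lines (adjusted p 0.00179, but 0.0827 with DESeq2), and CD3-negative cells averaged at most 1.93 CPM in any line. Conventional CD4 T cells held Ccl1 in other lines too: in the paired tumours they reached 2520 CPM in SCC35, 2126 in SCC32 and 1565 in SCC31, and the part of the CD4 class was not tested. The tumour at 0 was SCC35 day 16 tumour 2. Ifitm1, an interferon-induced membrane protein, had its highest mean in SCC35, at 419 ± 414 CPM with a range of 40.3 to 881, and averaged 20.3 to 67.4 CPM elsewhere (adjusted p 0.00632). Cd44, an adhesion receptor of activated T cells, was highest in SCC35 (327 ± 189 CPM, adjusted p 0.0476), but CD3-negative cells averaged 268 to 486 CPM by line.

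SCC35 tumours enter this comparison at days 16 and 20 only, since its earlier tumours held 0 to 9 CD8 T cells each, so its line means also come from later days. The count of 114 varied between 29 and 534 over the alternatives, with 534 without the mix library, which takes out 2 of the 3 SCC31 tumours, 61 with the replicate number as a block, 60 without SCC32 day 16 replicate 2 and 243 without SCC35 day 20 replicate 3. The number of genes tested varied too, from 651 with thinned cells to 15067 without the filter on low counts. Leave-one-out fits aside, the share called ran from 1.06% (at least 20 cells) to 13% (no mix library). Of 30 named genes, Irf7, Ifitm1 and H2afz, a histone gene, kept their call in every alternative. The list also held Gm26917 and AY036118, noncoding transcripts known to collect ribosomal RNA reads; AY036118 stood at 71250 CPM in SCC31 day 10 tumour 1, the shallowest sum, and lost its call in leave-one-out fits (adjusted p up to 0.103).

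**Figure D5:**
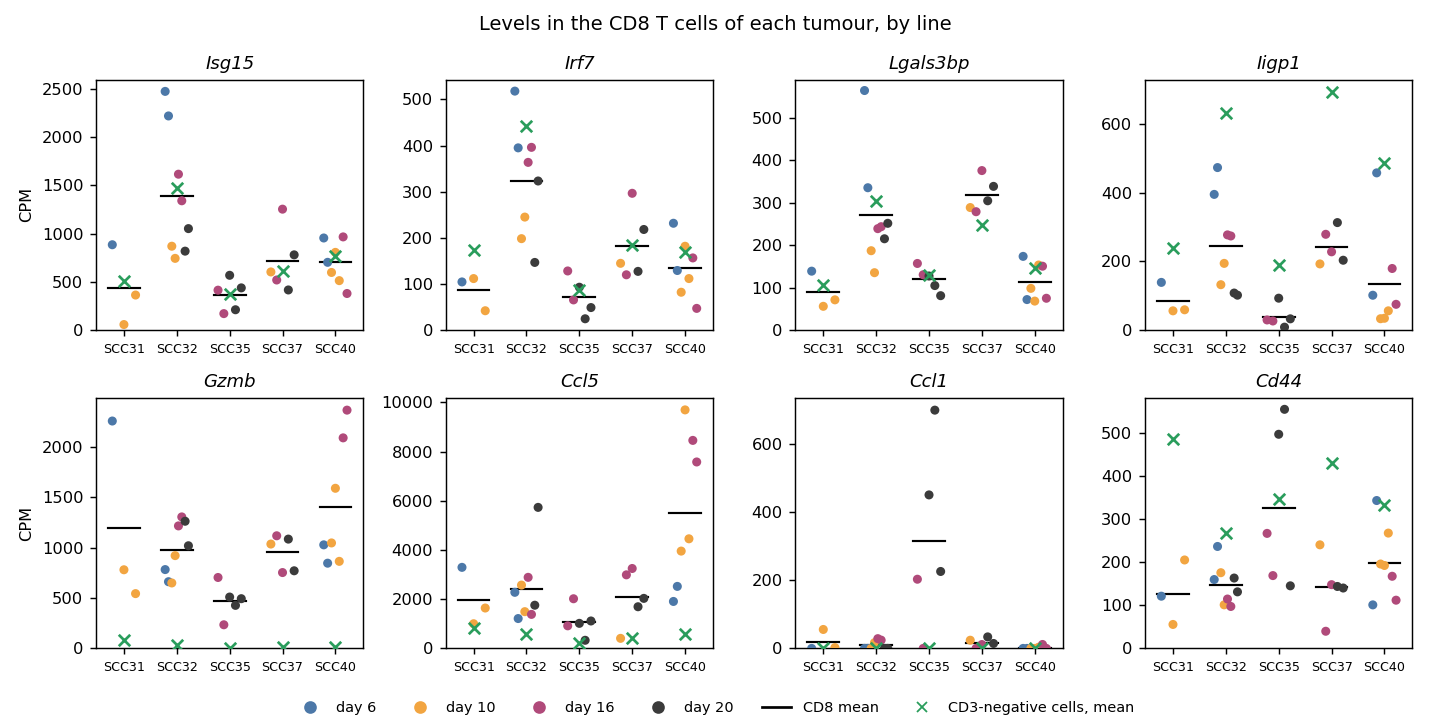
Levels in CPM of 8 genes in the CD8 T cells of each of 28 tumours by line, coloured by day, with the line mean in black and the mean of CD3-negative cells of the same tumours as a green cross. SCC32 is highest and SCC35 lowest for Irf7, both in CD8 T cells (323 and 71.7 CPM) and in CD3-negative cells (442 and 85.9 CPM), whereas Ccl1 is high in SCC35 CD8 T cells and near 0 in CD3-negative cells.

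Few genes passed a test of change over time within the CD8 T cells. Between day 6 (5 tumours of SCC31, SCC32 and SCC40) and day 10 (8 tumours), 4 of 2801 genes passed the test (0.143%), all lower at day 10 in this fit, whereas DESeq2 called 8 higher and 6 lower. They included the interferon-induced GTPase genes Gbp2 and Iigp1 and, outside the rule for named genes and chosen after its values were seen, the chemokine gene Ccl8, which macrophages express. Gbp2 (ENSMUSG00000028270) had 294.8 CPM in SCC31, 734.7 and 908.4 in SCC32 and 130.2 and 200.6 in SCC40 at day 6. At day 10 it had 55.7 and 146.9 in SCC31, 187.0 and 67.5 in SCC32, 120.4 in SCC37 and 16.3, 34.0 and 69.6 in SCC40. Within each line shared by both days every day 6 tumour lay above every day 10 tumour. The log2 change was -2.06 (SE 0.40, adjusted p 0.0143), and for Iigp1 it was -1.84 (SE 0.37, adjusted p 0.0160). Neither call held in every alternative: with the stricter gate the adjusted p was 0.104 for Gbp2 and 0.297 for Iigp1.

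The interferon list as a whole, with Gbp2 and Iigp1 counted in, leaned the same way. Of its 16 tested members 0 had a log2 change above 0, with a median of -0.88 against 0.02 over all genes. An unadjusted p under 0.05 was reached by 8 of the 16, Gbp2 and Iigp1 among them, and by 9.75% of all genes. No member besides Gbp2 and Iigp1 passed the test. Isg15 had a median of 955 CPM at day 6 and 599 at day 10 (log2 -1.09, SE 0.31, adjusted p 0.152). The same genes were lower at day 10 in the CD3-negative cells of these tumours, where Gbp2 averaged 1364 and 260 CPM, Iigp1 774 and 336 and Isg15 1776 and 590. Marker lists of other cells were also lower at day 10 in the CD8 sums. The 10 macrophage markers summed to 399 to 1140 CPM at day 6 (median 602) and 95.5 to 433 at day 10 (median 238). The dendritic list had medians of 2044 and 500 CPM, with 7 of its 10 members detected and Xcr1, Clec9a and Ccl17 at 0. The natural killer list had medians of 632 and 196. The fibroblast list had medians of 859.5 and 484.4 CPM, with 4126 and 3920 in SCC32 at day 6 against 462 and 853 at day 10, and ranges that overlapped in SCC31 and SCC40. Their part in the change was not tested. Without cells over 10000 UMIs 19 genes were called (6 higher, 13 lower), without Scrublet doublets 27 (5 and 22), without the mix library 38 (4 and 34), without SCC31 day 6 replicate 3 8, without SCC32 day 6 replicate 2 1, and with thinned cells 0 of 651 genes tested.

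Because Gbp2 and Isg15 belong to the interferon list, their promoters were read from RefSeq (GRCm38.p6). Both are printed over the 150 bases that end at the start site, on the strand of the gene, Gbp2 at chr3:142620513-142620662 (plus) and Isg15 at chr4:156200819-156200968 (minus). Capitals mark the letters GAAANNGAAA on either strand, the core of the interferon-stimulated response element.
Gbp2: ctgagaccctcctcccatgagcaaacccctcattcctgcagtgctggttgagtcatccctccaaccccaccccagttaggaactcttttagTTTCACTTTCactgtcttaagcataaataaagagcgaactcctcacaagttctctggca
Isg15: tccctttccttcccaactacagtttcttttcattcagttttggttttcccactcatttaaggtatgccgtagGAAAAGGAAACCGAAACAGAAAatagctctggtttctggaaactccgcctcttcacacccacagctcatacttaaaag
Gbp2 holds 1 match on the reverse strand, and Isg15 holds 3 that overlap. In the table's windows of 300 bases, from 250 before to 50 after the start, 7 of the 11 list members found there held the letters (63.6%), against 3.44% of 32851 promoters. Irf7 and Isg20, which differed between lines, held none in this window. A match is a description of letters and not of binding.

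Several groups leaned upward from day 6 to day 10 without a call. Inhibitory receptor and exhaustion genes had 0 of 13 called and 11 above 0 (median 0.92). Pdcd1 had a median of 14.5 CPM at day 6 and 96.9 at day 10 (log2 1.88, SE 0.72, adjusted p 0.343), and Tox, a transcription factor of exhausted T cells, 17.3 and 45.2 (log2 1.64, SE 0.68, adjusted p 0.373). Gzmk had 14.5 and 80.2 CPM in median (log2 2.15, SE 0.61, adjusted p 0.152). The day 6 sums held 57658 to 106160 UMIs each. The day 6 medians of Pdcd1, Tox and Gzmk therefore stand for very few UMIs, near the floor of detection. All 15 tested T cell receptor signalling genes had a change above 0 (median 0.60), with none called. Gzmb had medians of 845 and 892 CPM (log2 -0.18, SE 0.29, adjusted p 0.916). In simulated sums of this design 49 of 100 genes changed 4-fold and 4 of 100 changed 2-fold were recovered. The spread between tumours set in the simulation was larger than that of the data, whose common biological coefficient of variation was 0.30. The share of real changes that could be detected was therefore not measured, and changes could have been missed.

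From day 10 to the later days no gene of 2801 was called (0%) with edgeR, 108 had an unadjusted p under 0.05 (3.86%), and DESeq2 called 2. Cxcr6, a chemokine receptor gene of tissue-resident T cells, had 45.0 ± 38.4 CPM at day 6 (n = 5), 96.0 ± 49.7 at day 10 (n = 8) and 218 ± 74.5 later (n = 15), but its log2 change of 1.28 (SE 0.33) had an adjusted p of 0.566. The CPM levels by stage mix different lines, since SCC35 enters only at the later days and SCC31 only before them. The log2 changes are adjusted for line. Gzmb had medians of 892 and 1018 CPM (log2 0.67, SE 0.25, adjusted p 0.999998). Ccr7, the lymph node homing receptor gene, had medians of 132 and 65.1 CPM (log2 -1.21, SE 0.57, adjusted p 0.999998). Of 17 proliferation genes tested 16 had a change above 0 (median 0.38) and of 10 naive, stem-like and memory genes 3 did (median -0.40), none of them called. Within SCC32 and within SCC40, the lines with at least 2 tumours in each stage, 0 of 4324 genes were called (0%), with 93 (2.15%) and 200 (4.63%) at an unadjusted p under 0.05 and 0 with DESeq2 in either.

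The outcome of the lines was compared with the line as the unit, over CD8 UMIs of days 6 and 10 summed per line, 2 rejected lines against 3 non-rejected. These sums had no minimum of cells. The SCC35 tumours of these days held 0, 6, 4, 9, 3 and 7 CD8 T cells, and those of SCC37 held 2, 5, 9 and 11. In the SCC35 tumours with members, cells over 10000 UMIs held 0%, 95.7%, 45.5%, 92.1% and 64.6% of the UMIs. No gene of 5728 was called (0%), 204 had an unadjusted p under 0.05 (3.56%), and DESeq2 called 1. All 16 interferon response genes tested had a log2 difference below 0, lower in the rejected lines (median -0.96 against -0.02 over all genes), with 0 called; Irf7 was at -1.12 (SE 0.61, adjusted p 0.999822). The cytotoxic granule list had 10 of 12 above 0 (median 0.45) and 0 called, with Gzmb at 0.24 (SE 0.30). The macrophage list leaned the same way as the interferon list, with 0 of 7 tested above 0 (median -1.47). So did the fibroblast list, with 0 of 4 above 0 (median -1.72), and the dendritic list, with 0 of 3 (median -1.69), and the part of these cells was not tested.

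Cells within the class were also described one by one, by whether a UMI of a gene was seen. To compare cells of different depth, 887 cells with at least 1000 UMIs were thinned to 1000 UMIs each, leaving out 12 shallower cells of day 6, 27 of day 10 and 117 of the later days. Of these cells 49.4% kept a UMI of Gzmb (64.3% unthinned, of all 1043), 72.8% of Nkg7 (88.0%), 15.4% of Mki67 (28.5%), 13.9% of Pdcd1 (26.9%) and 4.40% of Tcf7 (10.6%). Tcf7 was seen in 7 of 438 cells with Gzmb (1.598%) and in 32 of 449 without (7.13%). Pdcd1 went with Gzmb, at 18.04% of cells with it and 9.80% without. Gzma did so too, at 15.5% and 3.56%. Mki67 was found in 13.7% of cells with Gzmb and 17.1% of cells without. These shares pool cells of many tumours, and of lines whose Gzmb levels differed, and are a description with no test. At this depth a gene can go unseen in a cell that expresses it. The shares therefore do not show whether the class holds separate kinds of cell. Conventional CD4 T cells thinned alike kept a UMI of Gzmb in 13.5% of cells and of Tcf7 in 1.61%.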

How the data were processed

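Gene UMI counts and hashtag counts of 6 droplet libraries were used as deposited; they came from Cell Ranger 6.0.0 and mm10, per the submitters' processing notes. The hashtag table deposited with them gave line, day, outcome and mouse. Members and gene lists were chosen with earlier results of these data known. Doublets called by Scrublet (scanpy 1.11.5) were kept, and their removal was an alternative. Counts were summed per tumour (at least 10 cells) and tested with edgeR 4.0.16 (quasi-likelihood, TMM, filterByExpr, Benjamini-Hochberg, R 4.3.3), with line and day as terms, or the tumour as a block for CD8 against CD4. The line was the unit for outcome, without a minimum of cells. DESeq2 1.42.0 was an alternative. Shares were tested by exact permutation in Python 3.11.15 over tumours with at least 20 assigned or 10 CD3-positive cells. Named genes were list members that passed the test, up to 4 list members with the highest mean CPM, the 10 highest and 10 lowest called changes with a mean of at least 50 CPM and, between lines, the 20 lowest p. Members named without a call outside this rule were chosen after their values were seen. The tests recovered 49 of 100 simulated 4-fold changes for day 10 against day 6 and 100 of 100 for CD8 against CD4. For day 10 against day 6 the simulated spread between tumours was larger than that of the data. Same-numbered tumours came from different mice, so replicate numbers did not pair them. Summed counts ranged from 17950 to 408562 UMIs per tumour, and intervals cover counting error only. Some results for single genes are not reported here.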

Additional observations from a re-analysis of the deposited data

Results flagged for a closer look

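In SCC35 day 20 tumour 2, CD8 T cells made up 95.2% of CD8 and conventional CD4 T cells together (20 of 21 cells), apart from the other 4 later SCC35 tumours at 78.8% to 82.9%. Chance sets a sample apart in this way in about 1 in 20 groups, and 9 groups were examined. Plac8 changed differently between CD8 and conventional CD4 T cells from day 10 to the later days, by 2.20 on the log2 scale (adjusted p 0.0300, edgeR). From day 6 to day 10 the CD8 share of CD3-positive, Lyz2-negative cells went up by 14.4 percentage points in SCC31 (1 tumour, then 2) and by -7.27 points, that is down, in SCC32 (2 tumours at each day). This difference between the lines was not tested.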

How the results depend on the processing

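For day 10 against day 6, 4 genes were called, 27 without Scrublet doublets, 38 without the mix library, 19 without cells over 10000 UMIs, 0 with cells thinned to 1000 UMIs, 79 without the filter on low counts, 14 with DESeq2, 6 with the replicate block and 1 to 8 without single tumours; a minimum of 20 cells left no day 6 tumour. For the later days against day 10, 0 genes became 8 without the filter and 2 with DESeq2, and stayed at 0 with the replicate block and in all leave-one-out fits. Between lines, 114 became 29 with a hashtag ratio of 4, 35 with the stricter gate, 71 without Scrublet doublets, 534 without the mix library, 75 without cells over 10000 UMIs, 50 thinned, 40 and 183 with at least 20 and 5 cells, 376 without the filter, 326 with DESeq2, 61 with the replicate block, 69 with the mix library as covariate, and 60 (without SCC32 day 16 replicate 2) to 243 (without SCC35 day 20 replicate 3) in leave-one-out fits. Within SCC32, 1 gene was called without the filter and 0 to 0 in leave-one-out fits; within SCC40, 12 without the filter, 1 with at least 20 cells and 0 to 1 in leave-one-out fits. CD8 against CD4 gave 418 calls of 3810 genes tested (11%), 239 of 935 when thinned (25.6%) and 369 to 481 calls in leave-one-out fits. The number of genes tested differs between settings, so counts alone do not give the direction of a change. Between lines the main count was 4.07% of 2801 genes, the thinned count 7.68% of 651 and the count without the filter 2.5% of 15067. The difference of the late change gave 0 with a hashtag ratio of 4, the strict cell filter, no Scrublet doublets, no mix library or at least 20 cells, 2 with the stricter gate or thinned, 34 without the filter, 190 with DESeq2 and 0 to 2 in leave-one-out fits. Rejected against non-rejected lines gave 47 without the filter, 1 with DESeq2 and 0 to 1 in leave-one-out fits (1 without SCC31 and 1 without SCC40). The Simpson difference of -0.0593 lost its call at -0.0573 (hashtag ratio of 4), -0.0600 (strict cell filter), -0.0588 (stricter gate), -0.0467 (no Scrublet doublets), -0.0437 (no mix library), -0.0533 (no cells over 10000 UMIs), -0.0360 (at least 20 cells) and -0.0601 (share of the leading segment), and ranged from -0.0754 to -0.0442 in leave-one-out values. Leave-one-out steps in share of assigned cells were 2.304 to 2.61 points (day 10 minus day 6) and 1.41 to 1.92 (later minus day 10), and in share of CD3-positive cells -1.75 to 3.89 and 24.1 to 27.7. Taken as a share of CD8 and conventional CD4 T cells, a different denominator, the day 10 minus day 6 step was -13.2 points (exact permutation p 0.0706). The cause was not tested for any of these. The cap at 10000 UMIs, thinning and the CD8 and CD4 denominator were chosen after seeing the data. Of 71 genes named for CD8 against CD4, 61 kept their call in every alternative run and 10 lost it in at least 1 (Cd44, Dapl1, Fosb, Id2, Il2ra, Jund, Lag3, Mcm3, Nfkbia, Nr4a3); between lines 3 of 30 kept it. Only 5 tumours stand for day 6, which limits the comparison with it.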
